A study of Mus musculus with 8 samples.

Results

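In A-MuLV transformed mouse pro-B cells, that is, B cell precursors immortalised by Abelson murine leukaemia virus, 427 accessible regions gave a much weaker ATAC-seq peak after dTAG-13, in both lines studied, yet were still called as peaks in every library. They are called dimmed regions here. They were drawn from the 54239 distinct regions of the authors' deposited EBF1-dTAG_C table, of which 20342 overlapped a peak in all 8 peak lists and are called shared regions. The level of a region in a library was the highest fold enrichment among the peaks overlapping it, that is, the number of fragments piled up at the peak summit over the background estimated around it in the same library. A region counted as dimmed when its log2 level, averaged over the dTAG-13 libraries, minus that averaged over the DMSO libraries was -0.75 or lower in EBF1-dTAG_C and in EBF1-dTAG_N. The members were thus chosen by their measured levels with both treatments. All comparisons of dTAG-13 with DMSO below, the authors' folds included, come from the same libraries and are given as descriptions with no test.

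The study measured chromatin accessibility in 2 lines in which, per the labels, modified exogenous genes take the place of endogenous EBF1. The lines carry the genotypes EBF1-dTAG_C and EBF1-dTAG_N, names that give EBF1 the dTAG tag. Cells of each line were treated over 6 h, either with dTAG-13 at 0.5 uM or with its solvent DMSO, and each of the 4 groups has 2 libraries. All groups therefore carry the tagged protein and the transforming virus, and an unmodified line is not analysed here. Whether a line is 1 clone is not given in the sources used here, and neither is the remaining EBF1 protein.

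EBF1 is a DNA-binding protein that, with E2A, PAX5 and FOXO1, sets up the B cell programme. It is known as a pioneer factor because it can bind DNA within closed chromatin and lead to its opening. The dTAG system fuses a protein to a small domain that the compound dTAG-13 ties to a ubiquitin ligase, so that the fused protein is degraded within hours. In ATAC-seq, Tn5 transposase cuts and tags DNA that is not wrapped in nucleosomes, so a peak marks an open stretch such as a promoter or an enhancer, and a lower peak means fewer cut fragments from that stretch. Fewer cells with the stretch open and a stretch less open in each cell cannot be told apart in bulk libraries.

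The peak lists held 34202 to 42139 peaks per library. Read depth is not given, and the lowest background pileup, which follows depth, was 0.331 to 0.409 in the DMSO libraries and 0.240 to 0.372 in the dTAG-13 libraries. Of 12 pro-B marker genes, 10 had a peak in all 8 lists within 1 kb, the exceptions being Rag1 and Rag2. The same held for 0 of 10 myeloid markers, 4 of 10 T cell markers (Cd3d, Cd5, Lat and Zap70) and 3 of 10 erythroid and megakaryocyte markers (Klf1, Nfe2 and Pf4).

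Few dimmed regions lay at promoters, and those that did allow their DNA to be shown. RefSeq promoter windows, each of 300 bases from 250 before to 50 after a transcription start (GRCm38.p6), were overlapped by 17 of the 427 dimmed regions (3.98%) and by 34.0% of shared regions. The 17 regions covered 18 windows. Of these, 6 are printed, 5′ to 3′ along the gene. Hip1r and Tbc1d1 are the only windows that held the full EBF1 motif, Igll1 and Vpreb2 belong to genes of the surrogate light chain, and in Cdkl1 and Cibar2 the peak summit stayed within a few bases in all libraries. Capitals mark TCCCNNGGGA, the EBF1 motif searched, or, where that is missing, its inner letters CCCNNGGG. The motif with the inner letters was added after the data were seen. Both read the same on the other strand when N is any base, and every match to the full motif holds a match to the inner one.
Hip1r: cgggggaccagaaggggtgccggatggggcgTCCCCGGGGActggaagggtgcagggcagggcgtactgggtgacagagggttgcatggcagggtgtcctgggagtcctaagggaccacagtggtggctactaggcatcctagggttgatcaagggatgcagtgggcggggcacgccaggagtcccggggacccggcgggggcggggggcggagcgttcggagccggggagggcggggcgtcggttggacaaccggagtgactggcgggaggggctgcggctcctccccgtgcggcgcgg
Tbc1d1: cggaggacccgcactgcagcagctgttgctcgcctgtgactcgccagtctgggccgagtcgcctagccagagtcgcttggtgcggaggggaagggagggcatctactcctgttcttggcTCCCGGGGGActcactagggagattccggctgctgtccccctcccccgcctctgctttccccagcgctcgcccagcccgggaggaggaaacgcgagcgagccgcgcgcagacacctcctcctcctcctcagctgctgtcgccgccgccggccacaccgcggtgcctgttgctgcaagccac
Igll1: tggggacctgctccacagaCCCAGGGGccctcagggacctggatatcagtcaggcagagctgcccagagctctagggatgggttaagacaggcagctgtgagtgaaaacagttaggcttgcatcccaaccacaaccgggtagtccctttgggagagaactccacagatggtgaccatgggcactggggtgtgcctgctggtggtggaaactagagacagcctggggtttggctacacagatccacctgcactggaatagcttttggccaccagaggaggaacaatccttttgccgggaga
Vpreb2: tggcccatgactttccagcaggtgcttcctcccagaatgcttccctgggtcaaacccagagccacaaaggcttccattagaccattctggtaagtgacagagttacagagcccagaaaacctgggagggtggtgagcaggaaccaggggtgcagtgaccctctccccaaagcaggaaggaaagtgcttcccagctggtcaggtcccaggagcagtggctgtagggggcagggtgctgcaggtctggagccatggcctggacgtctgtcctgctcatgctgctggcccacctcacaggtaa
Cdkl1: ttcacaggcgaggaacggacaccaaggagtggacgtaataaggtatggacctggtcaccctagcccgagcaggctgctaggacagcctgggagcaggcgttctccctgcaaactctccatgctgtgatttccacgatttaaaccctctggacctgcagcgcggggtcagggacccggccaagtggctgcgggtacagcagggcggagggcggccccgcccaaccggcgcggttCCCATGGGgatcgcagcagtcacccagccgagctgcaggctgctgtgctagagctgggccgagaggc
Cibar2: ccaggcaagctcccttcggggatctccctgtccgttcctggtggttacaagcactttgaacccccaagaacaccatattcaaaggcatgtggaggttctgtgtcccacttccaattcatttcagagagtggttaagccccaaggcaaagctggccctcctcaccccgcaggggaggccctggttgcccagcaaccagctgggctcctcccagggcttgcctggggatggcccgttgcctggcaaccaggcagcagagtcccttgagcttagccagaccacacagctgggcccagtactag

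Hip1r encodes a clathrin-binding protein that links to actin, and its window lies at chr5:123973378-123973677 on the plus strand. The full motif stood at bases 32 to 41, counted from 1 at the 5′ end of the window. The dimmed region had levels of 18.5 and 13.8 with DMSO and 5.6 and 7.76 with dTAG-13 in EBF1-dTAG_C, and of 15.0 and 16.3 against 6.39 and 6.95 in EBF1-dTAG_N. Both dTAG-13 values were below both DMSO values in each line. The summit lay at bases 116 to 124 in the 4 DMSO libraries and at bases 210 to 289 in the 4 dTAG-13 libraries, further along the gene and away from the motif.

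In Tbc1d1, which encodes a Rab GTPase-activating protein (window at chr5:64160010-64160309, plus strand), the full motif was at bases 120 to 129. The summit was at bases 58, 134, 129 and 129 in the DMSO libraries, so that in EBF1-dTAG_N it lay on the last base of the motif. With dTAG-13 it was at base 22 in 1 EBF1-dTAG_C library and at -45, -68 and -73, ahead of the window, in the other 3 libraries. The level fell from 11.3 and 13.2 to 5.95 and 7.14 in EBF1-dTAG_C and from 14.2 and 15.2 to 7.01 and 7.59 in EBF1-dTAG_N. The authors' deposited EBF1-dTAG_C table, which counts reads over the whole region, gave a log2 fold change of -0.54 (edgeR, Benjamini-Hochberg adjusted p = 0.0916), and the authors' deposited EBF1-dTAG_N table one of -0.58 (adjusted p = 2.12e-07). The EBF1-dTAG_N p-values rest on a spread pooled over regions, so the p-values of the lines cannot be compared.

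At Igll1, which encodes lambda 5, a chain that pairs with VpreB to form the surrogate light chain of the pre-B cell receptor, the promoter peak had the highest pileup of all members in replicate 1 of the DMSO libraries of each line. The window at chr16:16863936-16864235 (minus strand) held the inner letters at bases 20 to 27, E-boxes at bases 93 to 98 and 243 to 248, and GAGGAA at bases 276 to 281. The summit lay at bases 114 to 125 in 7 libraries and at base 154 in the remaining one. The level was 18.6 and 17.1 with DMSO and 4.04 and 5.68 with dTAG-13 in EBF1-dTAG_C, and 19.8 and 18.7 against 7.09 and 7.01 in EBF1-dTAG_N. The pileup at the summit went from 316 and 276 fragments to 17 and 28, and from 385 and 339 to 33 and 41. The peak was kept at the same place in most libraries and was much lower after dTAG-13 in all of them.

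Vpreb2 encodes the partner of lambda 5, and its window (chr16:17980315-17980614, plus strand) held no match to the motif or its inner letters. It had CAGCTG at bases 191 to 196 and, on the other strand, CACCTG at bases 19 to 24 and GAGGAA at bases 26 to 31, and the summits of all libraries lay at bases 10 to 39. The level was 18.6 and 20.3 against 7.37 and 5.42 in EBF1-dTAG_C, and 19.7 and 19.6 against 8.47 and 14.8 in EBF1-dTAG_N, where the dTAG-13 libraries were far apart. A second dimmed region, 9573 bp from the gene (chr16:17969084-17969872), had levels of 25.4 and 24 against 10.7 and 9.14, and of 25.3 and 26.6 against 13.7 and 12.9. Vpreb1 is a close copy of Vpreb2, and how reads fitting both were treated is not given in the sources used here.

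In Cdkl1, a kinase gene (chr12:69790658-69790957, minus strand), the inner letters stood at bases 234 to 241 and the summit at bases 258 to 264 in all 8 libraries. Its level was 21.4 and 22.8 against 7.25 and 8.21 in EBF1-dTAG_C, and 29.5 and 26.2 against 16 and 11.3 in EBF1-dTAG_N. In Cibar2 (chr8:120177420-120177719, minus strand), with no match to either motif, the summit was at bases 228 to 230 in all 8 libraries. There the level was 26.1 and 25.6 against 14.6 and 8.10, and 24.5 and 27.6 against 13.2 and 15.5. These 2 peaks were lower after dTAG-13 with the summit unmoved.

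Of the 18 windows, 2 held the full motif (11.1%), against 6.25% of the 32 windows under lost regions, defined as those with a peak in all 4 DMSO lists and in none of the 4 dTAG-13 lists. The share was 0.636% of the 5971 windows under stable regions, which are shared regions with an absolute log2 difference of at most 0.25 in both lines, and 0.904% of all 32851 windows. Inner letters were in 33.3% of windows under dimmed regions, 53.1% under lost regions, 17.1% under stable regions and 13.7% of all windows. The E-box CAGCTG, a sequence bound by E2A, was in 55.6%, 37.5%, 12.9% and 16.3% of the same sets, and the form CACCTG in 33.3%, 43.8%, 14.4% and 20.2%. GAGGAA, the core bound by PU.1, was in 61.1%, 25%, 26.0% and 28.3%. All motifs were searched on both strands. In the same order of sets, the ETS letters CCGGAA were in 33.3%, 6.25%, 35.4% and 14.9%, the RUNX letters TGTGGT in 22.2%, 15.6%, 11.4% and 16.8%, and the Sp/KLF letters GGGCGGG in 27.8%, 21.9%, 56.3% and 25.6%. The Sp/KLF share of dimmed windows was thus near that of all windows, which include those without a peak. It was below the 52.8% of the 8953 windows under shared regions. ATGCAAAT, GTAAACA and AGGTGGCAG, which stand for Oct, FOXO and CTCF, were in 0 of the 18 windows and in 1.74%, 3.65% and 0.782% of all windows, too few for a count of 0 in 18 to tell anything. With 18 windows, 1 window moves a share by several percentage points, and a match describes letters, not binding. The windows of Bccip and Uros overlap and hold the same CCGGAA and GGGCGGG sites, which are counted in both windows. Bases of the other 410 dimmed regions are not analysed here, since only promoter windows were at hand.

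Across all members, the median level was 20 and 19.6 in the EBF1-dTAG_C DMSO libraries and 8.21 and 7.83 in the dTAG-13 libraries. For EBF1-dTAG_N the medians were 22.6 and 22.1 with DMSO and 8.61 and 10.1 with dTAG-13. Stable regions had medians of 17.6 to 19.6 in all 8 libraries, so the dimmed regions started at or slightly above the level of stable ones and ended below their lower quartile, which was 12.4 to 13.9. Dimmed and stable regions were both chosen by these levels, so this describes the choice. Lost regions began lower, at 8.81 and 8.85 for EBF1-dTAG_C, then 12.6 and 12 for EBF1-dTAG_N.

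**Figure D1:**
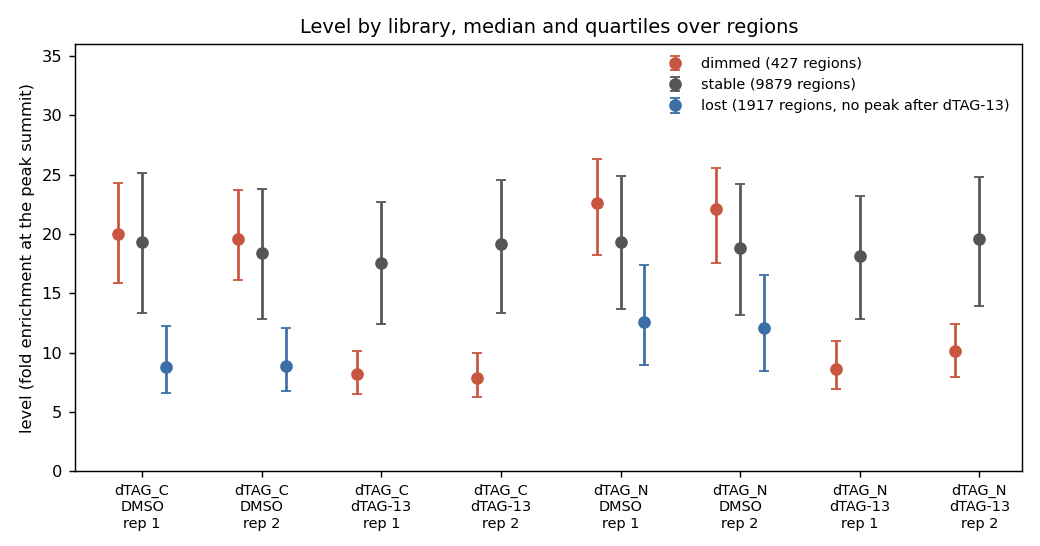
Level (fold enrichment at the peak summit, linear axis) in each of the 8 libraries for the 427 dimmed, 9879 stable and 1917 lost regions. Points are medians over regions and bars span the quartiles, so they show spread between regions, not replicate error. Dimmed regions stood at 19.6 to 22.6 with DMSO and at 7.83 to 10.1 with dTAG-13, while stable regions stayed near 18.

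The median log2 difference of the members was -1.20 in EBF1-dTAG_C and -1.14 in EBF1-dTAG_N, a 2.29-fold and a 2.2-fold lower level. Over all shared regions it was -0.09 and -0.05. In each line all 427 members had both dTAG-13 values below both DMSO values, which 28.6% of shared regions did in EBF1-dTAG_C and 27.6% in EBF1-dTAG_N. In 409 members the 4 dTAG-13 values lay below the 4 DMSO values of both lines (7.87% of shared regions). The rule fixes most of these counts, and nothing is read from them. Replicates differed by a median of 0.15 and 0.10 on the log2 scale with DMSO and by 0.32 and 0.30 with dTAG-13, so the lowered values were also the less repeatable ones.

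Fold enrichment as MACS2 computes it adds a constant to signal and background, which narrows differences between low values. The pileup at the summit had a median of 65 and 67 fragments with DMSO and 14 and 13 with dTAG-13 in EBF1-dTAG_C, and of 106 and 96 against 18 and 23 in EBF1-dTAG_N. Divided by the lowest background of each library, it dropped 3.23-fold at the median EBF1-dTAG_C member, and 4.06-fold for EBF1-dTAG_N. After dTAG-13 the peaks thus rested on few fragments, with 5 or 6 at the weakest member of each library.

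Reads over the whole region, in the authors' deposited tables, gave members a median log2 fold change of -1.49 in EBF1-dTAG_C and -1.65 in EBF1-dTAG_N. Lost regions had -2.51 and -2.83 in the authors' deposited tables, and stable regions had 0.12 and 0.22. At an edgeR Benjamini-Hochberg adjusted p under 0.05, 338 of 427 members were called lower in the authors' deposited EBF1-dTAG_C table, where 6.62% of all regions were, and none was called higher (0.308% of all regions), and 0 were higher at an unadjusted p under 0.05. The authors' deposited EBF1-dTAG_N table called 415 of them lower (18.5% of all regions) and none higher (18.8%), with 0 at an unadjusted p under 0.05. All 338 called in EBF1-dTAG_C were also called in EBF1-dTAG_N (7.98% of regions present in both of the authors' deposited tables). The EBF1-dTAG_N p-values were computed with 110386 denominator degrees of freedom against 11.2 in EBF1-dTAG_C, which means a spread pooled over regions, so the counts of the lines cannot be compared. Members called lower in EBF1-dTAG_C had a median DMSO level of 22.3 and the 89 others one of 16.8.

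Dimming was graded rather than uniform. The log2 difference ran from -2.29 to -0.75 in EBF1-dTAG_C and from -2.29 to -0.75 in EBF1-dTAG_N. It was -1 or lower in both lines in 226 members and -1.5 or lower in 39. Across the 427 members the lines' differences had a Pearson correlation of 0.43, and the authors' deposited log2 fold changes one of 0.85. The rule cuts off the differences at -0.75 in both lines but not the fold changes, so the 2 values are not alike. Over all shared regions the differences had a correlation of 0.535. All of these values describe regions that share the 8 libraries and are not tests.

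**Figure D2:**
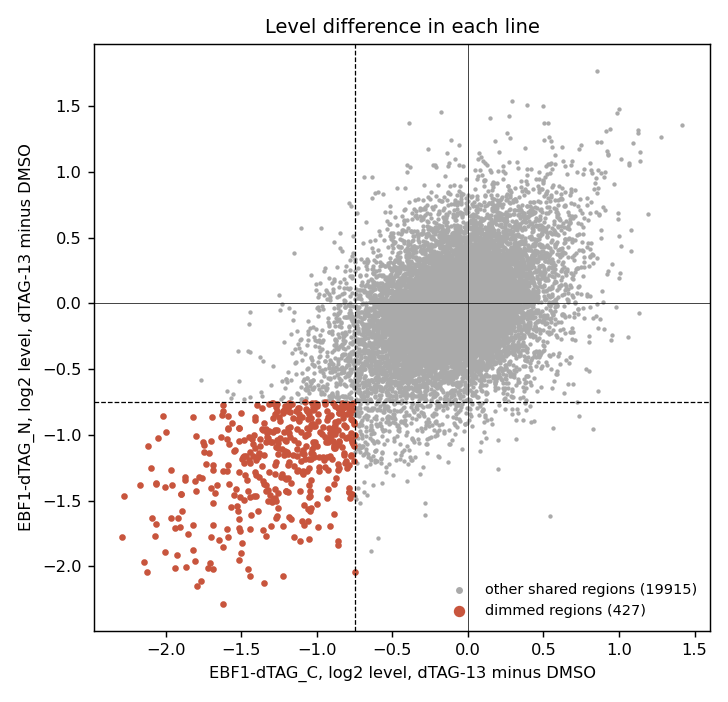
Log2 level with dTAG-13 minus DMSO in EBF1-dTAG_C (horizontal axis) and EBF1-dTAG_N (vertical axis), 1 point per shared region. Dashed lines mark the cut of -0.75, which defines the 427 dimmed regions at the lower left, and the remaining points are the other shared regions.

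The 8 members with the deepest mean dimming lay inside or near the genes and loci that follow. The deepest lay inside the immunoglobulin heavy chain locus Igh (chr12:114182631-114183104), with levels of 25.5 and 25.4 against 4.78 and 7.15 in EBF1-dTAG_C and of 27.1 and 27.3 against 6.68 and 6.56 in EBF1-dTAG_N. The authors' deposited tables put it 7.85-fold lower in the first line (edgeR adjusted p = 1.57e-05) and 11.2-fold lower in the second. Inside Slc23a2, a vitamin C transporter gene (chr2:132063791-132064461), the level went from 32.6 and 30.8 to 6.76 and 6.21, and from 30.9 and 28.5 to 7.01 and 10.7. It was the steepest member in EBF1-dTAG_C, at -2.29. A region 28279 bp from the zinc finger gene Zfp704 (chr3:9398322-9398731) had levels of 27.7 and 26.1 against 6.63 and 5.57, and of 27.5 and 23.4 against 5.81 and 7.22.

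Inside Mtss1, whose protein shapes the cell membrane and actin (chr15:58996649-58997085), the EBF1-dTAG_C levels were 26.5 and 18.5 with DMSO and 7.27 and 5.63 with dTAG-13, and those of EBF1-dTAG_N were 29.6 and 30.1 against 6.13 and 7.36. The authors' deposited tables gave a 5.14-fold and a 15.5-fold lower signal there. Gnao1, a G protein subunit gene (chr8:93840923-93841341), held the steepest EBF1-dTAG_N member, at -2.29, from 26.3 and 23.9 to 5.19 and 5.1. In EBF1-dTAG_C the same region went from 26.9 and 25 to 7.98 and 8.91. The other 3 lay inside Aldh2 (aldehyde dehydrogenase; log2 differences of -1.94 and -2.01), inside Chd9 (a chromodomain helicase; -2.0 and -1.89) and 7304 bp from Cyth1 (cytohesin, an exchange factor for ARF GTPases; -1.77 and -2.11). In all 8 the dTAG-13 values of both lines were far below the DMSO values, with no overlap. They were picked for these differences, so nothing is read from this.

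Genes of the B cell programme held some dimmed regions but most had none. Each region was assigned to the nearest protein-coding gene within 100 kb. By this measure 380 genes had a member, of 10731 genes with a shared region (3.54%). The 5 lists named here, of EBF1 targets, pre-B cell receptor and PI3K signalling, transcription factors, IL-7 signalling with survival and cell cycle, and homing and surface genes, had 18 different genes with a member. Per shared region, 5 of 94 (5.32%) near EBF1 targets, 5 of 119 (4.2%) near signalling genes, 4 of 197 (2.03%) near transcription factor genes, 4 of 100 (4.0%) near IL-7 and cell cycle genes and 3 of 56 (5.36%) near homing genes were dimmed, against 2.04% of shared regions near any gene. The share near transcription factor genes was close to that of all genes. Of the housekeeping genes, 0 of 12 had a member, as did 0 of 5 T cell, 0 of 1 myeloid and 0 of 4 erythroid and megakaryocyte marker genes with a shared region. With 3.54% of all genes having a member, these lists are too short for a count of 0 to tell anything.

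**Figure D3:**
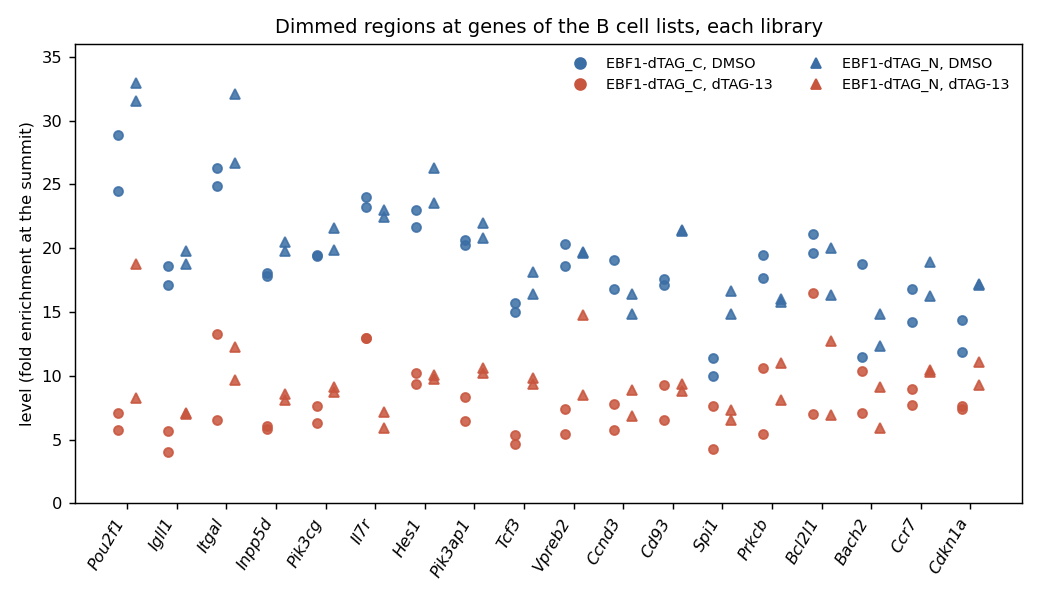
Level (fold enrichment at the summit) in each of the 8 libraries for the dimmed region of the 18 genes of the B cell lists, 1 region per gene, in order of the mean log2 difference of the lines. Circles are EBF1-dTAG_C and triangles EBF1-dTAG_N, and each symbol is 1 library. Blue DMSO symbols stood above red dTAG-13 symbols within each line at every gene, as in all members, which were chosen by these values.

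Among the EBF1 targets, Igll1 and Vpreb2 are described above. Il7r encodes the IL-7 receptor alpha chain, which pro-B cells need to grow, and had a dimmed region 10894 bp from the gene (chr15:9494775-9495265). Its levels were 24 and 23.2 against 13 and 13 in EBF1-dTAG_C, and 22.4 and 23.0 against 5.87 and 7.18 in EBF1-dTAG_N. The level after dTAG-13 was thus higher in EBF1-dTAG_C, and the log2 differences of -0.86 and -1.81 were among the most unequal between the lines. Hes1, a repressor gene that responds to Notch, had a member 77612 bp away (chr16:30145408-30145941), with levels of 21.6 and 23.0 against 9.35 and 10.2, and of 26.3 and 23.6 against 9.73 and 10.1. Both lines gave nearly the same values there. Cd79a, Cd79b, Pax5, Ebf1 and Vpreb1 were among those with shared regions and no dimmed one.

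In signalling, Inpp5d encodes SHIP-1, the phosphatase that removes the product of PI3K, and had 2 dimmed regions inside the gene. The one at chr1:87621795-87622297 had levels of 17.8 and 18 against 5.79 and 6.07 in EBF1-dTAG_C, and of 20.5 and 19.8 against 8.56 and 8.06 in EBF1-dTAG_N. Replicates were close in all 4 groups, and the pileup of 201 to 346 fragments with DMSO and 34 to 61 with dTAG-13 was high for a member. At Pik3ap1, which encodes the adaptor BCAP that joins the B cell receptor to PI3K, the dimmed region overlapped the promoter window (chr19:41385043-41385652). Its levels were 20.2 and 20.6 against 8.34 and 6.42, and 21.9 and 20.8 against 10.2 and 10.6. Pik3cg, a catalytic subunit of PI3K, had a member 4084 bp away with log2 differences of -1.48 and -1.21, and Prkcb, the protein kinase C beta gene, one inside the gene with -1.29 and -0.75.

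Of the transcription factor genes, Pou2f1, which encodes Oct-1, had the deepest member (chr1:165976650-165977004), with levels of 24.5 and 28.9 against 5.76 and 7.04 in EBF1-dTAG_C. In EBF1-dTAG_N they were 33.0 and 31.5 against 8.28 and 18.8, so the dTAG-13 libraries were far apart. Tcf3, the gene of E2A, had a member inside the gene (chr10:80429725-80430443) at 15.7 and 15.0 against 4.63 and 5.32, and at 16.4 and 18.1 against 9.84 and 9.37. The authors' deposited EBF1-dTAG_C table gave it a 3.89-fold lower signal (edgeR adjusted p = 1.51e-05). Weaker members lay 3340 bp from Spi1, the PU.1 gene (9.95 and 11.4 against 7.61 and 4.28, and 16.6 and 14.9 against 7.33 and 6.54), and inside Bach2, a repressor gene of B cells (11.4 and 18.7 against 7.07 and 10.3, and 14.8 and 12.3 against 5.90 and 9.14). Neither was called in the authors' deposited EBF1-dTAG_C table, with edgeR adjusted p of 0.101 and 0.0892. Their log2 fold changes there were -0.57 and -1.34. Both were called lower in the authors' deposited EBF1-dTAG_N table, with log2 fold changes of -1.15 and -1.20 (edgeR adjusted p = 1.27e-15 and 1.61e-05). The EBF1-dTAG_N p-values rest on a spread pooled over regions, so the calls of the lines cannot be compared.

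For IL-7 signalling, survival and the cell cycle, the strongest besides Il7r was inside Ccnd3, the cyclin D3 gene (chr17:47552985-47553371), at 19.1 and 16.8 against 7.80 and 5.77 and at 16.4 and 14.8 against 6.83 and 8.91. The authors' deposited EBF1-dTAG_C table put it 5.95-fold lower (edgeR adjusted p = 1.03e-05). Inside Bcl2l1, the gene of the survival factor Bcl-xL, the dTAG-13 replicates disagreed in both lines (7.01 and 16.5, then 6.90 and 12.7, against 16.3 to 21.1 with DMSO). Cdkn1a, which encodes the cell cycle inhibitor p21, had a member 18777 bp away, with log2 differences of -0.79 and -0.76. Among homing genes, the members were inside Itgal, the LFA-1 alpha chain gene (-1.46 and -1.43), 22191 bp from the chemokine receptor gene Ccr7 (-0.89 and -0.76) and 92066 bp from Cd93 (-1.15 and -1.24).

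Most genes with a dimmed region had 1. The 16 with several were led by Camk2d, a calcium- and calmodulin-dependent kinase gene, with 4 members of 10 shared regions, and Aff1, an elongation factor gene, with 3 of 10. The 4 Camk2d regions had log2 differences of -0.93 to -1.92 in EBF1-dTAG_C and of -1.11 to -1.63 in EBF1-dTAG_N, beside 2 lost and 4 stable regions. The other genes had 2 each, among them Bean1, Crb2, Dnah1 and Fam222a. Of the 380 genes, 110 also had a lost region (28.9%, against 11.2% of all genes with a shared region), and 238 had a stable one (62.6%, against 67.2%). A gene with more regions can more easily hold a dimmed and a lost one. The genes were not matched for their number of regions, so nothing is read from these shares. A dimmed neighbour within 10 kb was found for 10 members (2.34%), against 1.5% of all shared regions. Among regions over 1 kb from the start or end of a gene, the shares were close, at 2.26% and 1.86%.

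By distance to gene ends and place within gene spans, dimmed regions resembled lost ones and not stable ones. Promoter windows were overlapped by 3.98% of dimmed, 1.56% of lost and 46.1% of stable regions. Their centre was at most 1 kb from the start or end of a coding gene's span in 29 cases (6.79%), against 6.26% of lost, 52.1% of stable and 39.8% of all shared regions. Position within a gene span was found for 56.0% of dimmed, 58.0% of lost, 77.1% of stable and 70.6% of shared regions. The 29 members near a boundary had a median log2 difference of -1.18 and -1.10, and the 398 others -1.20 and -1.14. All members were chosen by this difference, which the rule cuts off in both lines, so nothing is read from the likeness of these medians. In the authors' deposited tables the members near a boundary had medians of -1.25 (EBF1-dTAG_C) and -1.40 (EBF1-dTAG_N) and the others -1.5 and -1.68, so by reads over the whole region those near a boundary were lowered less at the median. A lost region lay within 10 kb of 8.04% of the dimmed regions over 1 kb from a boundary, of 5.62% of such stable regions and of 7.19% of such shared regions.

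Dimmed and lost regions differed in their level with DMSO, which the rule itself constrains, since a dimmed region must still be called after a fall of at least 0.75. Of regions with a peak in all 4 DMSO lists and a mean DMSO level under 8, 13.1% were lost and 0.0310% dimmed. From 16 to below 20 it was 4.89% lost and 2.52% dimmed, and from 24 to below 28 it was 1.15% and 4.22%. At 28 or more, 0.683% were lost and 3.07% dimmed. Dimmed regions passed lost ones in number between levels of 16 to 20 (105 against 204) and 20 to 24 (118 against 81).

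**Figure D4:**
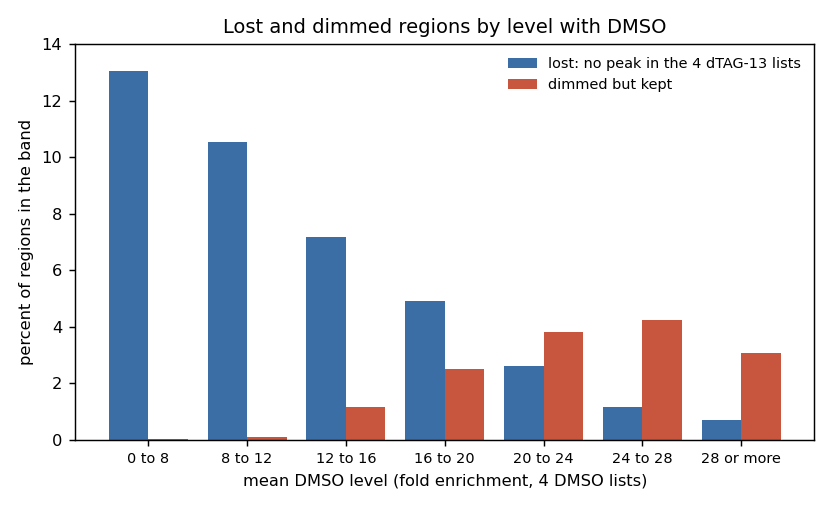
Percent of regions that were lost (blue) or dimmed (red) by the mean level over the 4 DMSO lists (fold enrichment), among regions with a peak in all 4 DMSO lists. The lost share fell from 13.1% in the lowest band to 0.683% in the highest, and the dimmed share rose from 0.0310% to 4.22% in the band from 24 to 28.

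The range of starting levels was wide. Highest with DMSO were a region 5707 bp from the replication gene Wdhd1 (33.9, 34.3, 33.3 and 32.6 over the DMSO libraries, 8.92 to 15.5 with dTAG-13), one 4262 bp from Serpinb9b (29.1 to 35.1, and 5.38 to 13.2) and one 22127 bp from the olfactory receptor gene Olfr164 (28.2 to 36.3, and 16 to 21.3). These 3 kept different heights after dTAG-13, with Olfr164 the highest. Lowest were those 1958 bp from the Mediator gene Med29 (7.03 to 7.62, and 3.3 to 4.41), 62697 bp from Klf13 (8.62 to 10.7, and 5.32 to 6.02) and inside Plekha2, which encodes a protein that binds PI3K products (8.34 to 11.6, and 4.04 to 5.02). The Med29 peak had 125 to 184 fragments at its summit with DMSO, so its low level went with a tall pileup.

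Peaks at dimmed regions narrowed. The median width was 385 and 401 bp with DMSO against 268 and 258 bp with dTAG-13 in EBF1-dTAG_C, and 423 and 420 bp against 287 and 305 bp in EBF1-dTAG_N. A member's mean width with dTAG-13 was 0.669 and 0.724 of that with DMSO at the median, against 0.971 and 0.985 for stable regions. In EBF1-dTAG_C 421 members were narrower (98.6%, against 68.7% of all shared regions) and in EBF1-dTAG_N 416 (97.4%, against 59.5%). Width is set where the signal crosses the caller's threshold, and the part of the lower signal in it was not tested.

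Summits became less fixed. DMSO replicates placed the summit of a member 8 and 7 bp apart at the median, and dTAG-13 replicates 27 and 21 bp apart. DMSO and dTAG-13 libraries placed it 22 to 31 bp apart, hardly more than dTAG-13 replicates among themselves. Distances over 100 bp were found for 1.87% and 2.11% of members between DMSO replicates, for 11.0% and 8.90% between dTAG-13 replicates and for 12.4% to 16.9% between treatments. Stable regions stayed at 8 to 9 bp in every comparison, and the 917 stable regions with a level under 12 in all lists at 11 to 16 bp. Of those 917, 9.60% and 8.07% were over 100 bp apart between DMSO replicates and 9.71% and 7.85% between dTAG-13 replicates. Between treatments it was 8.18% to 11.3%. With dTAG-13 replicates, the members' shares over 100 bp were thus near those of weak stable regions.

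**Figure D5:**
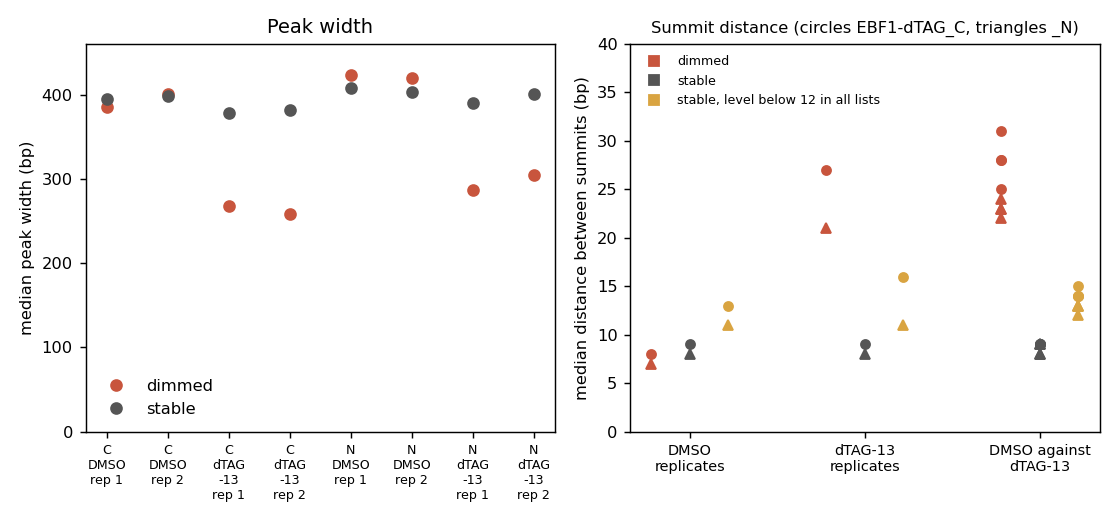
Left, median peak width in bp in each of the 8 libraries for dimmed and stable regions. Right, median distance in bp between the summits of a pair of libraries, for DMSO replicates, dTAG-13 replicates and pairs of a DMSO and a dTAG-13 library, with circles for EBF1-dTAG_C and triangles for EBF1-dTAG_N. Dimmed peaks narrowed to 258 to 305 bp, and their summits were 21 to 31 bp apart once a dTAG-13 library was involved.

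Summits lay within 50 bp among the libraries of each treatment in 141 members (33.0%, against 57.9% of stable regions). In 109 of these the summit shifted by up to 20 bp between treatments. In 8 members (1.87%) the summit moved in a repeatable way, by at least 100 bp while lying within 50 bp among the libraries of each treatment. This was met by 11 of 9879 stable (0.111%) and 40 of all shared regions (0.197%). The farthest was the region near Med29 (chr7:28382502-28383289), whose summit lay within 8 bp in the 4 DMSO libraries and 429.5 bp away with dTAG-13. Inside Hnrnpl, an RNA-binding protein gene (chr7:28821166-28821800), it shifted by 144 bp while the pileup fell from 247 and 242 to 15 and 26 in EBF1-dTAG_C and from 338 and 276 to 31 and 31 in EBF1-dTAG_N. The Inpp5d region described above shifted by 100.5 bp, and the others lay near or in Klf13, Slc47a2, Ppp1r1b, Irgc1 and Mapre2. At these members the summit of the kept peak was not the summit of the peak seen with DMSO.

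The rule asks for the cut in both lines, so nothing is read from their likeness among members. Dimming was not equal between the lines. The log2 differences of a member were 0.24 apart at the median, 71 members were more than 0.5 apart, and 233 were lower in EBF1-dTAG_C. The widest gap toward EBF1-dTAG_C was inside Itsn1, an endocytic scaffold gene (28.5 and 25.3 against 9.23 and 4.77, then 27.8 and 26.6 against 14.9 and 15.3). Next came a region inside the immunoglobulin kappa locus Igk (-2.12 and -1.08). Toward EBF1-dTAG_N it was the region near Ppp4r2, a phosphatase subunit gene (10.7 and 11.8 against 5.69 and 7.79, then 20.9 and 20.4 against 5.82 and 4.33), followed by Cdc42se2 (-0.86 and -1.84) and Il7r. At Ppp4r2 the lines differed mainly with DMSO and not with dTAG-13.

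With DMSO alone, the members were often higher in EBF1-dTAG_N. Both EBF1-dTAG_N values lay above both EBF1-dTAG_C values in 216 of 427 members (50.6%), against 23.6% of shared regions and 20.3% of stable ones. The reverse order was found in 38 members, or 8.90%, against 20.6% of shared regions. The median member was 1.1-fold higher in EBF1-dTAG_N with DMSO and 1.16-fold higher with dTAG-13, while stable regions were at 1.00-fold and 1.02-fold. Regions dimmed in EBF1-dTAG_N only were 1.22-fold higher in that line with DMSO and those dimmed in EBF1-dTAG_C only 1.01-fold. The comparison of lines was chosen after the data were seen, and the DMSO values also entered the rule. With 2 libraries against 2, the smallest exact permutation p for a single region would be 0.333.

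At the cut of -0.75, the members just inside were the regions near Med29 (-0.7504 and -1.0) and Ppp4r2 (-0.7505 and -2.04). Just outside were a region near Abhd17c (-0.7488 and -0.84), at 14.8 and 20 against 9.41 and 11.1 and at 19.7 and 16.3 against 7.58 and 13.3, and one near Car2 (-1.10 and -0.7486), at 16.1 and 21.0 against 9.56 and 7.69 and at 23.8 and 19.5 against 11.4 and 14.4. These values are near those of the weakest members, and the cut divides a continuous range. Beyond it, 415 shared regions were dimmed in EBF1-dTAG_C only, 365 in EBF1-dTAG_N only, and 37 were raised by 0.75 or more in both lines.

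In some members the summit level was much lower with dTAG-13 while reads over the whole region differed little. The authors' deposited tables gave 8 members a log2 fold change above -0.5 in both lines, and 5 of these lay within 1 kb of a gene boundary. One is the shared promoter of Bccip and Uros (chr7:133708733-133709421), with levels of 16.1 and 16.6 against 8.65 and 9.73 in EBF1-dTAG_C and of 17.9 and 19.1 against 8.07 and 9.30 in EBF1-dTAG_N. The authors' deposited tables put its log2 fold change at -0.04 and -0.26. Its summit lay at bases 126 to 136 of the Bccip window in the DMSO libraries, before the window in the EBF1-dTAG_C libraries with dTAG-13 and at bases 242 to 250 in those of EBF1-dTAG_N. The region near Tapbpl was the only member with a positive value in the authors' deposited EBF1-dTAG_C table, at 0.17. For these members the 2 measures do not describe the same change.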

How the data were processed

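The 8 ATAC-seq libraries fall into 4 groups by the labelled genotype and treatment. The sample titles call the controls 0 h and the treatment label 6 h of DMSO, and the latter was followed. Per the submitters' processing notes, the authors used MACS2 2.2.7.1, Bowtie2 2.3.5.1, edgeR 3.32.0, SAMtools 1.10 and deepTools 3.3.2 with GRCm38, without their roles. The sources used here give neither read filters nor Tn5 offsets.

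The authors deposited 1 peak list per library, each peak with a score, a fold enrichment over local background, and −log10 p-values and q-values. They also deposited 1 table per line with log2 fold changes, log2 CPM, an F score, p-values and Benjamini-Hochberg adjusted p-values, with no values per library, so no test was refitted and no SD is attached. Repeated entries (8 and 12) were counted once. The members and gene lists were chosen with earlier results of these data known.

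Peaks and regions were joined by an overlap of at least 1 bp (Python 3.11.15, pandas 2.3.3, scipy 1.17.1). The summit pileup was solved from the authors' fold enrichment and −log10 p-value within a relative tolerance of 0.0001, which succeeded for 94.6% of members' peaks, and the nearest whole number was taken otherwise. Replicate numbers inside the peak names differ from the labels in 2 EBF1-dTAG_C libraries (4 for DMSO replicate 1 and 3 for dTAG-13 replicate 2), so numbers pair no samples. Gene spans and promoter sequences are RefSeq's for GRCm38.p6, with 21896 protein-coding genes and 32851 promoter windows. The gene table gives no strand or exons, so only gene spans and their ends were used. The overlap, the solver and the rule were tested on simulated data.

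Regions were named by a fixed rule: the 8 lowest mean differences, up to 5 per B cell list, 2 on each side of the cut, the genes with most members, the 3 highest and 3 lowest DMSO levels, and the 3 widest gaps between the lines each way. A region that this rule names is not reported here. Alternatives were other cuts, centring, another way to set the level, stricter overlap or peaks, the other table's regions, pileup, pairs by number, and leaving out each library. The regions with moved summits, those of low fold and those of the Ig loci were chosen after their values were seen.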

Additional observations from a re-analysis of the deposited data

How the results depend on the processing

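The count of 427 dimmed regions rests on the cut. It was 226 at -1 and 898 at -0.5, with median log2 fold changes in the authors' deposited tables of -1.75 and -1.07 (EBF1-dTAG_C) and of -1.96 and -1.16 (EBF1-dTAG_N). With the summit pileup over the lowest background in place of fold enrichment there were 876 regions, 409 of them among the 427, with medians of -1.23 and -1.29. Centred on the median of all shared regions, 354 were left, with medians of -1.60 and -1.78. With a replicate block, where each same-numbered pair had to reach the cut, 249 were left, with medians of -1.75 and -1.88. The numbers do not pair the libraries, so this is only a stricter cut.

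The mean of overlapping peaks, the stricter overlap, peaks with −log10 q of at least 5 and the regions of the EBF1-dTAG_N table gave 426, 426, 359 and 426 regions. Without 1 library, 400 to 565 regions were found, the most without dTAG-13 replicate 2 of EBF1-dTAG_C, of which 385 were among the 427. Their medians were -1.54 to -1.43 and -1.74 to -1.59. The percent of regions within 1 kb of a gene boundary was 6.29 to 8.09 without 1 library and 6.50 to 9.35 under the other alternatives, below the 39.8% of shared regions throughout. No median changed sign, but each alternative chose regions by a fall in the same libraries, so nothing is read from this. The weakest kept peaks rest on 5 fragments, and background pileup, which follows depth, was lower with dTAG-13 within each line. Its part in which regions were kept was not tested.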

Other observations

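The immunoglobulin loci held 12 dimmed regions, a comparison made after the values were seen. Within the RefSeq span of Igk, the kappa light chain locus (chr6:67555636-70726754, GRCm38), 8 of 66 shared regions were dimmed (12.1%), against 2.10% of all shared regions. A further 27 of the 213 regions there were lost (12.7%, against 3.53% of all regions), and 21 were stable. The log2 differences of the 8 ran from -2.12 to -0.94 in EBF1-dTAG_C and from -2.0 to -0.88 in EBF1-dTAG_N. One of them (chr6:69261085-69261430) had levels of 22.8 and 24.3 against 6.51 and 6.36, and of 30.1 and 29.9 against 9.65 and 5.83. Within Igh (chr12:113258768-116009954), 4 of 72 shared regions were dimmed (5.56%) and 3 of 173 regions were lost (1.73%). Within Igl, 0 of 7 shared regions were dimmed and 1 of 15 regions was lost. Variable gene segments are repetitive, and how reads fitting several of them were treated is not given in the sources used here.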
